A study of Macaca fascicularis with 8 samples.

Results

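The peaks of chromosome 19 were examined in single-cell chromatin accessibility data (scATAC-seq) of cynomolgus monkeys (Macaca fascicularis), with chromosome 18 as the contrast. Members were all rows of the 8 deposited peak lists whose chromosome was chr19, which gave 28750 of 773526 peaks, and chr18 gave 16445. When peaks of the 8 lists that overlapped by at least 1 bp were merged, chromosome 19 had 7656 and chromosome 18 had 6993 of 295418 regions. The libraries came from normal organs of 1 adult female monkey (colon, heart, lung, uterus and a liver library, called the female liver) and 1 adult male monkey (kidney, spleen and a liver library, called the male liver), without any treatment. Each organ other than liver had 1 library, so organ, animal and library cannot be told apart, and organs were not tested against each other.

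In this assay, the Tn5 transposase cuts open DNA inside nuclei, and the fragments of a nucleus carry a shared droplet barcode. A peak is a stretch of DNA with many cuts, and open stretches are typically promoters and enhancers. Promoters of genes that most cells use are open in nearly every tissue, whereas many enhancers are open in a few cell types. The macaque chromosomes 19 and 18 correspond to the human chromosomes of the same number. Human chromosome 19 is known for its high gene density, with large families of zinc finger and immune receptor genes, and tends to lie in the interior of the nucleus, whereas human chromosome 18 is gene-poor and tends to lie at the nuclear periphery. In the gene table of the T2T-MFA8v1.1 assembly, chromosome 19 holds 1477 protein-coding genes, rank 2 of the 20 autosomes, and chromosome 18 holds 297, rank 20. That table belongs to another assembly than the peaks, and the build of the peaks is named in none of the sources used, so peaks were not assigned to genes, no sequence is shown, and the organ labels were not checked against marker genes.

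Only barcodes that reached 1000 counts entered, between 728 in the female liver and 20019 in spleen. They held between 1978404 counts in the female liver and 110748462 in colon. The female liver stands apart by its low depth and by the longest list, 165942 peaks, against 37159 in the shortest list, that of uterus. Between 3 and 379 kept barcodes were shared by 2 libraries, at most 3.15% of the smaller one. Levels are given in CPM, the counts of a peak or region per 1000000 counts in peaks of the kept barcodes of the same library.

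Chromosome 19 had more peaks per Mb than chromosome 18 in every library. The length used was the distance from the first to the last merged region, 58.8 Mb on chromosome 19 and 73.7 Mb on chromosome 18. On chromosome 19 there were 66.8 peaks per Mb in colon, 43.5 in heart, 63.8 in kidney, 90.0 in the female liver, 63.7 in the male liver, 59.8 in lung, 65.0 in spleen and 36.4 in uterus. On chromosome 18 there were 31.5 peaks per Mb in colon, 20.6 in heart, 33.0 in kidney, 49.8 in the female liver, 32.8 in the male liver, 22.9 in lung, 23.9 in spleen and 8.66 in uterus. The female liver, with the longest list, was highest on both chromosomes, and uterus, with the shortest, was lowest on both. Within a library the density on chromosome 19 was between 1.81-fold (female liver) and 4.21-fold (uterus) that on chromosome 18. The mean log2 ratio was 1.23 ± 0.40 (SD, n = 8 libraries), with 1.30 over the 5 libraries of the female animal and 1.12 over the 3 of the male. With the 20000 peaks with the most counts of each library it was 2.07.

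**Figure D1:**
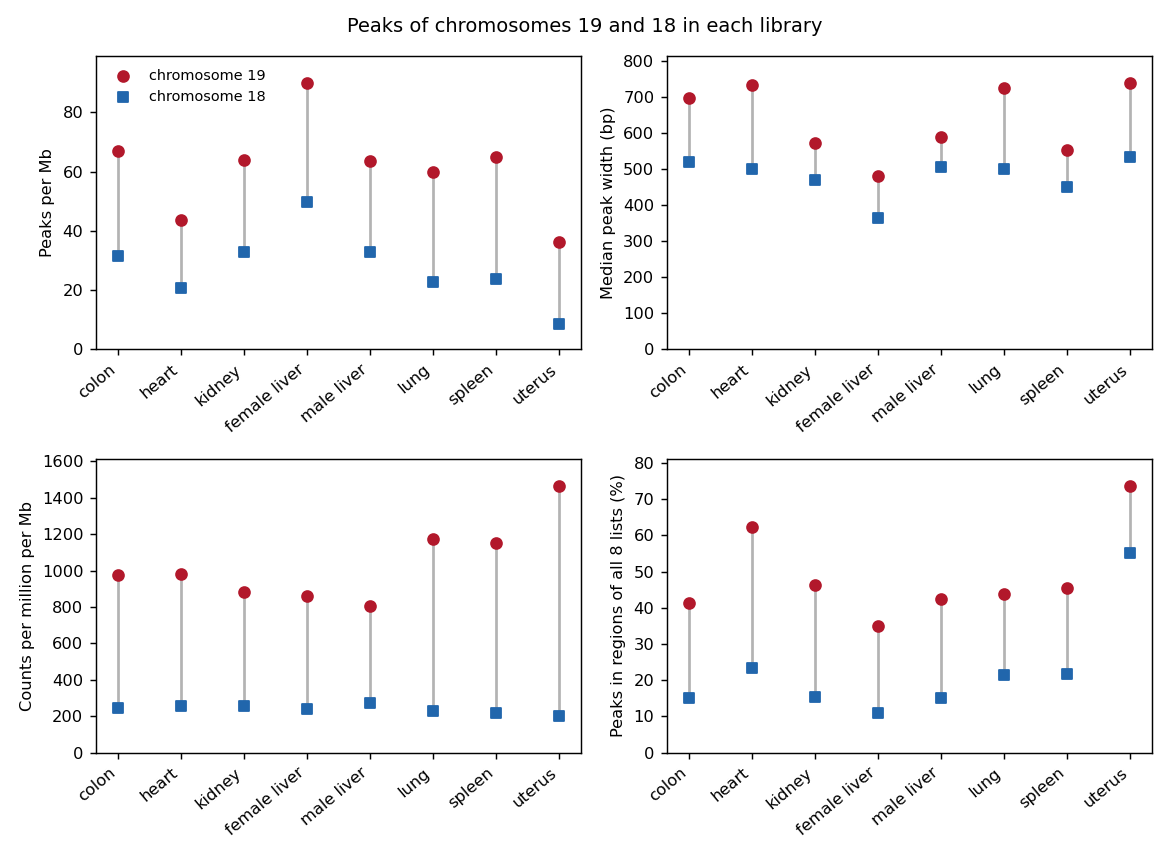
Peaks per Mb, median peak width in bp, CPM per Mb and the percent of peaks in regions found in all 8 lists, for chromosome 19 (circles) and chromosome 18 (squares) in each library, with a line joining both values of a library. The circle lies above the square in all 8 libraries and all 4 panels, and uterus has the largest gap in CPM per Mb (1467 against 203).

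The difference in density and 6 others described below were tested by an exact two-sided sign-flip permutation test over the 8 libraries, with Benjamini-Hochberg adjustment over the 7 tests. The 6 others were distance between peaks, width, CPM per Mb, median counts of a peak and the shares of peaks in regions of all 8 lists and of 1 list. All 8 libraries went the same way in each of the 7 measures, so every p and every adjusted p by this exact test was 0.00781, the smallest that 8 libraries can give. The p-values refer to these libraries of 2 animals and 1 pair of chromosomes, since peaks of different lists often are the same site, and they do not rank the measures. For the share of peaks in regions of all 8 lists, every library is scored on one and the same set of regions, so its 8 differences are not separate observations and are given as a description, without use of that p. For the share of peaks in regions of 1 list only, the other 7 lists decide whether a peak is counted. Its 8 differences therefore also depend on each other, and its p does not rest on 8 separate observations. Regions of all 8 lists held at least 74.0% of the counts of chromosome 19 and 40.3% of those of chromosome 18 in each library. The libraries thus share many sites in the other measures too, and no p here speaks for further animals or chromosomes.

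The peaks of chromosome 19 also lay closer together. The median distance from one peak to the next was 4721 bp in colon, 8139 bp in heart, 5218 bp in kidney, 3601 bp in the female liver, 4689 bp in the male liver, 5311 bp in lung, 4859 bp in spleen and 10619 bp in uterus. On chromosome 18 it was between 6894 bp in colon and 26572 bp in uterus. The log2 ratio of the distances was -0.91 ± 0.25 (SD, n = 8), with -0.91 in both the female and the male animal, and -1.46 with the 20000 strongest peaks. Peaks covered between 4.02% (uterus) and 7.26% (lung) of the length of chromosome 19, and between 0.668% (uterus) and 2.67% (male liver) of that of chromosome 18.

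Peaks on chromosome 19 were wider. Their median width was 697 bp in colon, 733 bp in heart, 571.5 bp in kidney, 481 bp in the female liver, 589 bp in the male liver, 724 bp in lung, 554 bp in spleen and 740 bp in uterus. On chromosome 18 the median width was between 365 bp in the female liver and 535 bp in uterus. The ratio within a library ran from 1.16-fold in the male liver to 1.46-fold in heart, a mean log2 ratio of 0.40 ± 0.12 (SD, n = 8). Over the libraries of the female animal it was 0.47 (range 0.40 to 0.55) and over those of the male 0.27 (0.22 to 0.30), so the ranges of the animals did not overlap. In every other tested measure the ranges of the animals did overlap. Liver was the only organ of both animals, with 0.40 in the female and 0.22 in the male liver. In the female liver, 20.7% of the chromosome 19 and 31.9% of the chromosome 18 peaks had no count. A difference between the animals was not tested. Peaks over 1000 bp made up between 24.1% (female liver) and 37.6% (heart) of the chromosome 19 peaks, against 12.6% (female liver) to 24.9% (uterus) on chromosome 18. The width difference was lost among the strongest peaks: in the 20000 peaks with the most counts of each library the log2 ratio was -0.02, with an exact permutation p of 0.727. When peaks open in fewer than 1% of the barcodes were left out it was 0.31 (exact permutation p = 0.0234).

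The share of all counts that fell on chromosome 19 was 5.72% in colon, 5.77% in heart, 5.17% in kidney, 5.06% in the female liver, 4.73% in the male liver, 6.89% in lung, 6.78% in spleen and 8.62% in uterus. Chromosome 18 took 1.79% in colon, 1.88% in heart, 1.87% in kidney, 1.74% in the female liver, 2.02% in the male liver, 1.67% in lung, 1.60% in spleen and 1.49% in uterus. The libraries with a high share on chromosome 19 (uterus, lung and spleen) were the 3 lowest on chromosome 18, and the male liver was lowest on chromosome 19 and highest on chromosome 18. The exact 95% binomial intervals, computed on counts divided by 2 because most counts are even, reached at most 0.0432 percentage points to each side (chromosome 19 in the female liver) and cover counting error only. Per Mb, chromosome 19 had between 805 (male liver) and 1467 (uterus) CPM, and chromosome 18 between 203 (uterus) and 275 (male liver). The ratio ran from 2.93-fold in the male liver to 7.24-fold in uterus, a log2 ratio of 2.10 ± 0.42 (SD, n = 8), with 2.21 in the female and 1.92 in the male animal.

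A chromosome 19 peak also had more counts than a chromosome 18 peak. The median peak of chromosome 19 had between 3.03 CPM in the female liver and 20.4 in uterus, and that of chromosome 18 between 1.01 in the female liver and 12.7 in uterus. The log2 ratio was 0.78 ± 0.36 (SD, n = 8), with 0.91 in the female and 0.57 in the male animal. It ranged from 0.29 in the male liver to 1.58 in the female liver, where the median chromosome 18 peak had only 2 counts. Without the female liver the mean was 0.66. The log2 ratio was smaller per kb of peak, 0.25, and with the 20000 strongest peaks, 0.26. The median peak had a count in 0.412% (female liver) to 7.42% (uterus) of the barcodes on chromosome 19, and in 0.275% to 5.01% in the same 2 libraries on chromosome 18.

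The share of chromosome 19 was higher the more counts the peaks had. Peaks were ranked by their counts and not per kb, so width enters this ranking, and chromosome 19 peaks were wider. Among the 1000 peaks with the most counts of a library, it held 172 in uterus, 142 in lung, 125 in spleen, 112 in heart, 99 in kidney, 96 in colon, 76 in the male liver and 61 in the female liver. Chromosome 18 held between 8 in lung and 21 in kidney. Among the 20000 strongest peaks, chromosome 19 held between 4.77% (male liver) and 6.88% (uterus), and in the whole lists between 3.19% (female liver) and 5.76% (uterus). Chromosome 18 went from between 0.800% and 2.10% among the 1000 strongest to between 1.72% and 2.25% of the whole lists. With equal list lengths of 20000, uterus, lung and spleen were again the 3 highest on chromosome 19.

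**Figure D2:**
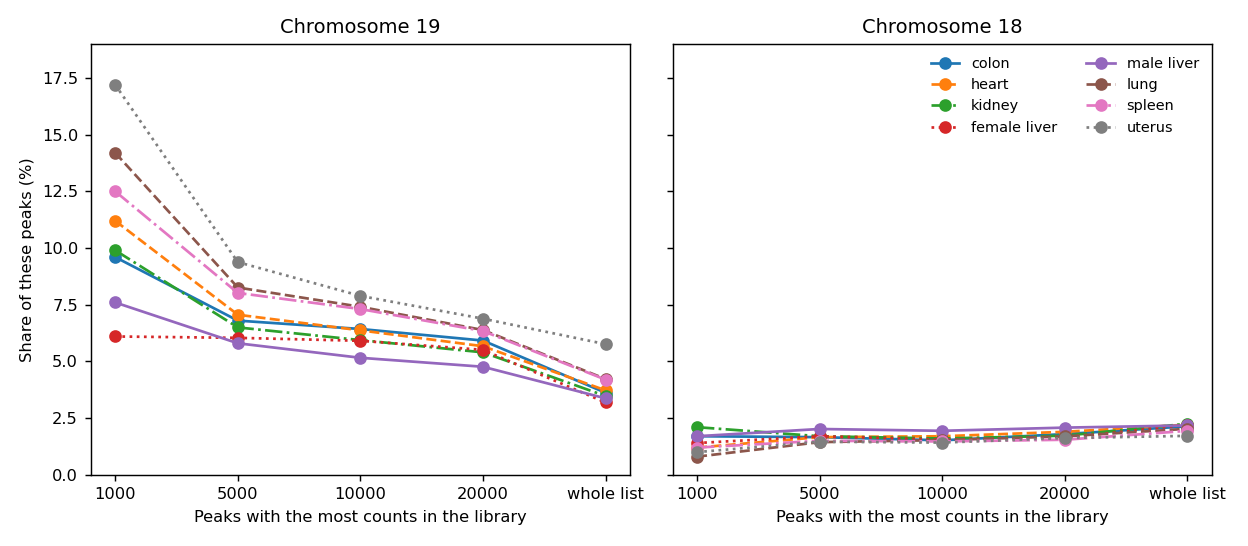
Percent of peaks on chromosome 19 (left) and chromosome 18 (right) among the 1000, 5000, 10000 and 20000 peaks with the most counts and in the whole list, 1 line per library. In uterus the chromosome 19 share falls from 17.2% of the 1000 strongest to 5.76% of the whole list, while no chromosome 18 value exceeds 2.25%.

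Regions of chromosome 19 were found in all libraries more often. Of the 7656 merged regions of chromosome 19, 1359, or 17.8%, had a peak in all 8 lists, against 315 of 6993, or 4.50%, on chromosome 18 and 6.76% of the regions of all chromosomes. Regions with a peak in 1 list only were 3175, or 41.5%, on chromosome 19 and 3920, or 56.1%, on chromosome 18, with 52.7% over all chromosomes. Chromosome 19 therefore lay on the side of sharing, and chromosome 18 on the other side, of the value over all chromosomes in both measures.

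Counted per Mb, the excess of chromosome 19 depended on the number of lists. Regions of 1 list had nearly the same density on both chromosomes, 54.0 per Mb on chromosome 19 and 53.2 on chromosome 18 (1.02-fold). Regions of 2 lists were 1.09-fold denser on chromosome 19, those of 3 lists 1.30-fold, of 4 lists 1.70-fold, of 5 lists 1.77-fold, of 6 lists 2.07-fold and of 7 lists 2.19-fold. Regions of all 8 lists had 23.1 per Mb on chromosome 19 and 4.27 on chromosome 18, or 5.41-fold. The fold rose with every further list, and over regions of any number of lists it was 1.37. Without the female liver the folds were 5.44 for regions of all remaining lists and 0.982 for regions of 1 list. Without uterus the fold for regions of all remaining lists was 4.30, since 443 regions of chromosome 18 then qualified. With the 20000 strongest peaks of each library the fold of 1-list regions was 1.43.

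**Figure D3:**
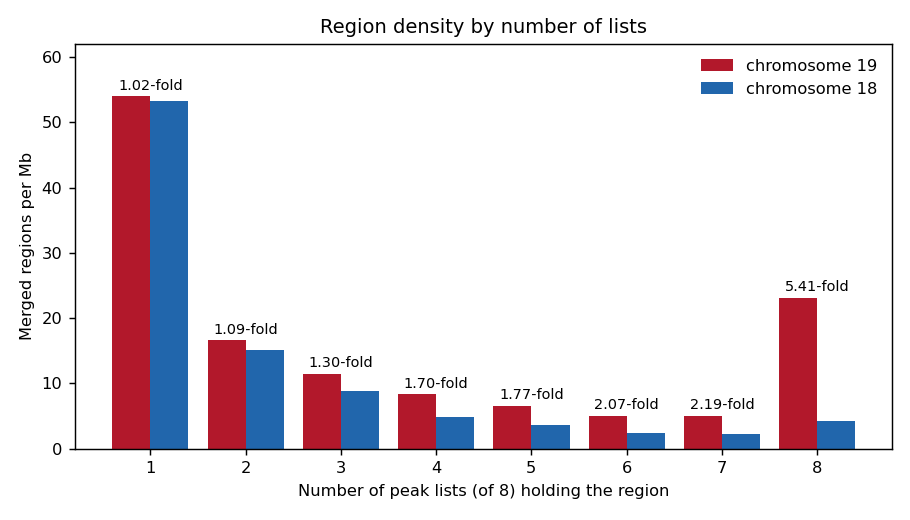
Merged regions per Mb by the number of the 8 peak lists that hold a peak in them, on chromosome 19 and chromosome 18, with the fold of chromosome 19 over chromosome 18 above each pair of bars. The bars are level for regions of 1 list (1.02-fold) and differ by 5.41-fold for regions of all 8 lists.

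By library, the share of chromosome 19 peaks that lay in regions of all 8 lists was 41.2% in colon, 62.3% in heart, 46.3% in kidney, 34.8% in the female liver, 42.5% in the male liver, 43.7% in lung, 45.4% in spleen and 73.8% in uterus. On chromosome 18 it was 15.2% in colon, 23.3% in heart, 15.3% in kidney, 10.9% in the female liver, 15.2% in the male liver, 21.4% in lung, 21.6% in spleen and 55.0% in uterus. The 2 shortest lists, of uterus and heart, had the highest shares on both chromosomes, and the longest list had the lowest. The difference was 26.5 ± 6.22 percentage points (SD, n = 8), from 18.7 in uterus to 39.0 in heart, with 26.0 in the female and 27.4 in the male animal. With lists of equal length, the 20000 peaks with the most counts of each library, it was 15.5. Regions of all 8 lists held between 74.0% (male liver) and 92.7% (uterus) of the counts of chromosome 19, and between 40.3% (male liver) and 80.3% (uterus) of those of chromosome 18.

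Peaks in regions of 1 list only made up 11.4% of the chromosome 19 peaks in colon, 5.20% in heart, 12.6% in kidney, 21.4% in the female liver, 11.2% in the male liver, 7.68% in lung, 6.18% in spleen and 3.08% in uterus. On chromosome 18 they made up 24.8% in colon, 20.2% in heart, 30.2% in kidney, 34.8% in the female liver, 19.5% in the male liver, 18.9% in lung, 10.3% in spleen and 8.62% in uterus. The difference was -11.1 ± 4.72 percentage points (SD, n = 8), with -11.7 in the female and -10.0 in the male animal. It was largest in kidney (-17.6) and smallest in spleen (-4.14). The counts in such peaks were between 0.556% (uterus) and 3.30% (kidney) of chromosome 19 and between 2.69% (spleen) and 13.1% (kidney) of chromosome 18.

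Since chromosome 19 peaks were wider and stronger, the sharing was also compared among peaks of similar width and of similar counts. Density was not matched, and the widest bin had no upper limit, so widths could still differ within it. Each library's own list was split by width into 5 bins of equal size. The mean share in regions of all 8 lists was 17.3% on chromosome 19 and 7.30% on chromosome 18 in the narrowest bin, 37.7% and 16.1% in the middle bin and 79.9% and 61.3% in the widest bin. Chromosome 19 was higher in 8 of 8 libraries in each of the 5 bins. In 5 bins by counts, the strongest bin had 83.7% on chromosome 19 and 63.4% on chromosome 18, and in uterus both were near 97% (97.6% and 97.2%). The share in regions of 1 list was not lower on chromosome 19 in every bin. In spleen alone it was higher there in the narrowest bin (26.1% against 23.6%) and in the bin with the fewest counts (21.9% against 19.7%). Stricter rules of overlap made the difference in the share of peaks in regions of all 8 lists smaller. It was 19.8 percentage points when the midpoint of a peak had to lie in a peak of each other list, and 11.6 when an overlap of at least 50% of both peaks was required. With only peaks of at most 1000 bp in all lists it was 5.26, and with sharing taken from the whole lists the peaks of at most 1000 bp differed by 21.2. The difference in the share of peaks in regions of 1 list did not shrink under stricter overlap. It was -12.1 percentage points by midpoint and -13.8 with 50% of both peaks, against -11.1 as reported. With peaks of at most 1000 bp it was -10.2, and -11.4 with sharing taken from the whole lists.

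The 28 pairs of lists were also compared 1 by 1, as the share of the peaks of both lists that overlapped the other list. On chromosome 19 it ranged from 48.5% to 75.5% with a median of 64.2%, and on chromosome 18 from 20.8% to 57.4% with a median of 41.0%. It was higher on chromosome 19 in all 28 pairs. Colon with spleen ranked 1 on both chromosomes, with 75.5% on chromosome 19 and 57.4% on chromosome 18. Both liver libraries together ranked 9 on chromosome 19, with 65.6% (58.9% of the female and 75.1% of the male list), and 2 on chromosome 18, with 53.0% (44.9% and 65.3%).

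Among the 20 autosomes, chromosome 19 was at the upper end of the measures per Mb and per peak. Without scaling to length, its share of all counts ranked between 2 and 10 and its share of all peaks between 6 and 18, while chromosome 18 ranked 20 in both in all 8 libraries. It ranked 1 in median width, in CPM per Mb, in the median counts of a peak and in the share of peaks in regions of all 8 lists in 8 of 8 libraries, and 1 in peaks per Mb in 6. Its share of peaks in regions of 1 list was the lowest in all 8 libraries. Its median distance between peaks was the shortest in 5. Chromosome 16 had a shorter distance in heart and uterus, and chromosome 20 in kidney. Chromosome 18 ranked between 16 and 18 in peaks per Mb and between 17 and 20 in the share of peaks in regions of all 8 lists. Averaged over libraries, the other 18 autosomes had a median of 26.1% of their peaks in regions of all 8 lists, with 37.6% on chromosome 16 as the highest, against 48.8% on chromosome 19 and 22.2% on chromosome 18. The median peak density of the other autosomes was 35.7 per Mb, between 22.4 on chromosome 5 and 58.5 on chromosome 16. Chromosome 19 was farther from this median than chromosome 18 in both measures, so most of the contrast came from chromosome 19.

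**Figure D4:**
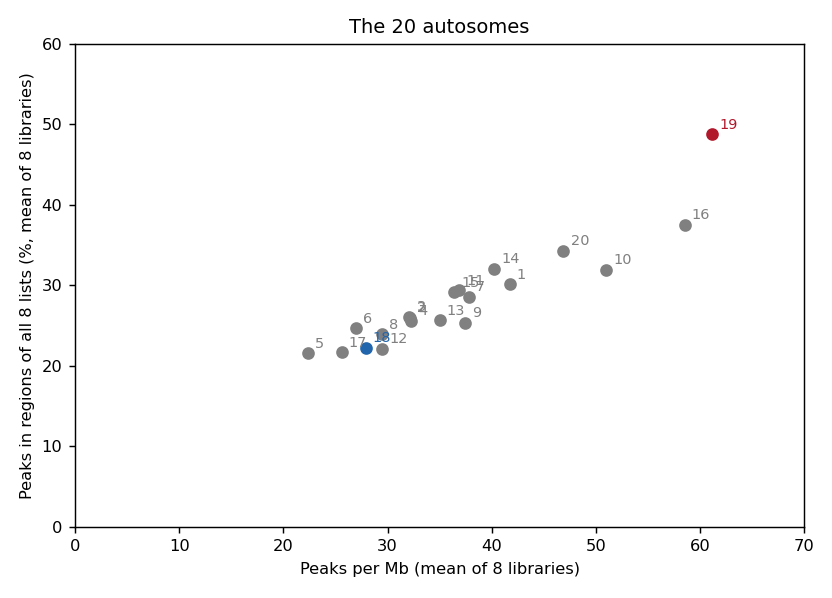
Percent of peaks in regions of all 8 lists against peaks per Mb for the 20 autosomes, each the mean of 8 libraries, with chromosomes 19 and 18 coloured and each point labelled by its chromosome. Chromosome 19 lies alone at the upper right (61.1 peaks per Mb, 48.8%) and chromosome 18 among the lowest (27.9 peaks per Mb, 22.2%).

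In single barcodes the difference held almost without exception. The median barcode had 5.71% of its counts on chromosome 19 in colon (quartiles 5.11% and 6.41%), 5.64% in heart (4.82% and 6.59%), 5.16% in kidney (4.69% and 5.75%) and 4.96% in the female liver (4.33% and 5.60%). It had 4.65% in the male liver (4.16% and 5.36%), 6.79% in lung (5.75% and 8.01%), 6.75% in spleen (6.15% and 7.35%) and 8.24% in uterus (6.89% and 9.99%). Uterus had the highest share and the widest spread between barcodes, with quartiles 3.09 percentage points apart, and kidney the narrowest, with 1.06. The median share on chromosome 18 was between 1.47% (uterus) and 2.01% (male liver). The share on chromosome 19 exceeded that on chromosome 18 in 100% of the 20019 spleen barcodes and in 96.2% of the 5770 uterus barcodes, with the other libraries between 96.8% and 99.9%. The median barcode had a count in 50 (female liver) to 241 (uterus) peaks of chromosome 19 and in 18 (spleen) to 63 (male liver) peaks of chromosome 18.

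The share on chromosome 19 moved with the depth of a barcode in a direction that differed between libraries. The barcodes of a library were split by total counts into 4 bins of equal size. From the bin with the fewest counts to that with the most, its median went from 5.07% to 4.56% in the male liver, from 5.40% to 4.99% in kidney, from 5.84% to 5.55% in colon and from 6.86% to 6.46% in lung. It went the other way in uterus, from 7.07% to 8.16% with 8.75% in the third bin, in heart, from 5.15% to 5.64% with 5.84% in the third bin, and in the female liver, from 4.76% to 5.12%. Spleen changed from 6.71% to 6.79%. These directions are those of the end bins, and lung (7.15%) and colon (5.86%) were highest in the second bin. The order of uterus above lung and spleen and of these above the male liver held in each bin.

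**Figure D5:**
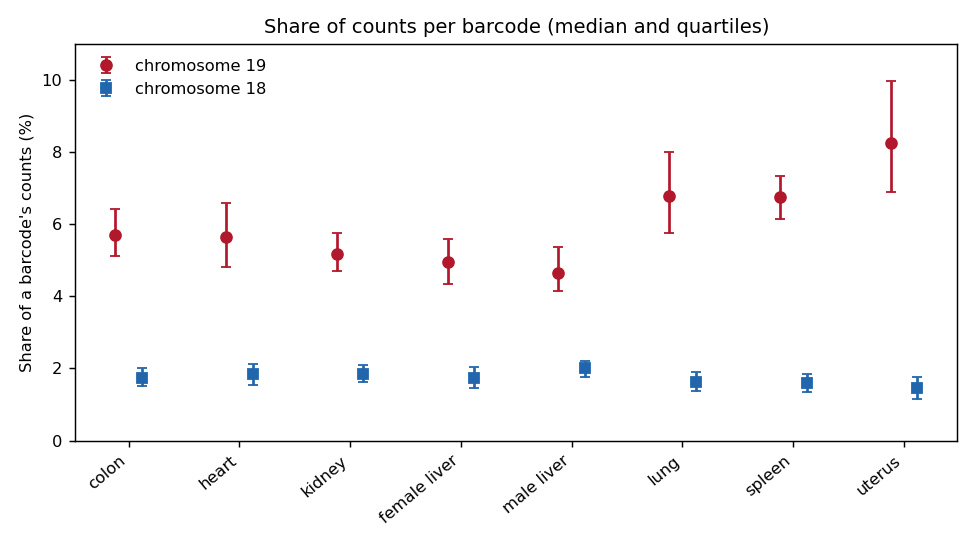
Share of a barcode's counts on chromosome 19 (circles) and chromosome 18 (squares) in percent, by library, for barcodes with at least 1000 counts. Points are medians over barcodes and bars run from the lower to the upper quartile. The medians of chromosome 19 run from 4.65% to 8.24%, above all upper quartiles of chromosome 18.

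To compare organs over the same merged regions, the counts were restricted to the 19964 regions of all 8 lists on all chromosomes. Within a region, only the counts in a library's own peaks entered, so the base pairs covered still differed between libraries. Chromosome 19 holds 6.81% of these regions, and it had 7.53% of their counts in colon, 7.48% in heart, 7.27% in kidney, 6.84% in the female liver, 6.66% in the male liver, 8.48% in lung, 8.49% in spleen and 9.46% in uterus. Chromosome 18 holds 1.58% of them and had between 1.42% (uterus) and 1.57% (heart) of the counts. The highest library exceeded the lowest 1.42-fold on chromosome 19 and 1.11-fold on chromosome 18. Uterus, spleen and lung were again the 3 highest on chromosome 19 and the 3 lowest on chromosome 18. The exact binomial interval was widest in the female liver, 6.77% to 6.91%, and with 1 library per organ the order was not tested.

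The regions were spread unevenly along both chromosomes. In windows of 1 Mb, chromosome 19 had a median of 130 regions (quartiles 75.5 and 189) over 59 windows and chromosome 18 a median of 85.5 (quartiles 41 and 143.5) over 74 windows. The densest windows were alike, with 246 regions at chr19:47000001-48000000 and 259 at chr18:22000001-23000000. Regions of all 8 lists had a median of 24 per window on chromosome 19 and 2 on chromosome 18. At least 10 of them lay in 45 of the 59 windows on chromosome 19 and in 13 of the 74 on chromosome 18, and none lay in 5 and 22 windows. The most were 52 at chr19:18000001-19000000 and 20 at chr18:1-1000000. The 5 windows of chromosome 19 without one were at 22, 26, 27, 42 and 43 Mb, and the window at 26 Mb had only 2 regions of any kind. The longest stretch of chromosome 19 without a region was chr19:24356255-25614999 (1258745 bp), and that of chromosome 18 was 318288 bp long.

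The window with the most counts on chromosome 19 was chr19:1000001-2000000 in all 8 libraries, with between 2244 CPM in the female liver and 5043 in uterus. On chromosome 18 the libraries differed in their leading window. It was chr18:63000001-64000000 in colon, lung, spleen and the female liver, with between 954 (lung) and 1195 (female liver) CPM. Heart had it at 59 Mb, kidney at 31 Mb, the male liver at 6 Mb and uterus at the start of the chromosome. Some of these leads were narrow. The male liver had 1067 CPM against 1060 at chr18:22000001-23000000, and uterus 821 against 815 at chr18:70000001-71000000. Kidney had 918 against 886 at chr18:6000001-7000000, and heart 1155 against 1046 at chr18:63000001-64000000. The 10 windows with the most counts held between 32.4% (female liver) and 37.1% (kidney) of the counts of chromosome 19.

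The region with the highest mean of chromosome 19 over the organs was chr19:1003824-1049291, which was also the widest, with 45468 bp. It had 499 CPM in colon, 798 in heart, 672 in kidney, 453 in the female liver, 519 in the male liver, 805 in lung, 911 in spleen and 1355 in uterus. It was split into several peaks in each list, from 2 in lung to 12 in the female liver. It was followed by chr19:49185632-49214748, with between 358 (female liver) and 845 (uterus) CPM, and by chr19:50408959-50439772, with between 284 (female liver) and 965 (uterus). Uterus was highest in all 3 of these regions, by 1.49-fold, 1.59-fold and 1.76-fold over the next organ, with both livers averaged. These folds depend on the scale, as CPM is relative to all counts in a library's own list. Regions of all 8 lists held 35271239 of 41721017 counts in uterus, 39281297 of 59616749 in spleen and 70655376 of 102697781 in lung.

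On chromosome 18 the region with the highest mean was chr18:63914935-63922711, with between 146 (male liver) and 217 (uterus) CPM. It was followed by chr18:63722783-63741808, where heart had 361 CPM and the others between 74.8 (male liver) and 174.7 (uterus). The third and widest, chr18:6647973-6669830 with 21858 bp, had 275 CPM in the male liver and 210 in kidney, against 111 in the female liver and at most 92.8 in the others. In each of the 8 libraries, the lowest of the 3 leading regions of chromosome 19 was above the highest of the 3 of chromosome 18, most narrowly in the male liver (317 against 275). The regions differ in width, and per kb the order changed. The mean was 22.4 CPM per kb in the leading region of chromosome 18, against 17.4, 18.05 and 15.8 in the 3 of chromosome 19, which exceeded it in uterus alone (29.0 to 31.3 against 27.9). The other leading regions of chromosome 18 had 8.93 and 5.34 CPM per kb, below the means of all 3 of chromosome 19. By library they were not always below, as the former was above all 3 of chromosome 19 in heart (15.1 to 17.5), and the latter, with 12.6 in the male liver, was above 2 of the 3 there.

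Few regions of all 8 lists were led by 1 organ. A region was called led when the highest organ had at least 4 times the CPM of the next organ and at least 50 counts. This was so for 6 of 1359 regions on chromosome 19, or 0.442% (exact 95% binomial interval 0.162% to 0.958%), and for 2 of 315 on chromosome 18, or 0.635% (0.0770% to 2.27%), with 0.686% over all chromosomes. The intervals of both chromosomes held the value over all chromosomes. Without the female liver 10 regions of chromosome 19 were led, or 0.736%, and 3 of chromosome 18, or 0.952%. Without the male liver these were 8, or 0.589%, and 2, or 0.635%. On chromosome 19 uterus led 3, heart 2 and kidney 1, and colon, liver, lung and spleen led 0 of 1359. For these 0 values up to 0.221% each is allowed if 0 is taken as fewer than 3 regions, or 0.271% as the exact binomial limit. Over all chromosomes uterus also led the most, 58 of 19964 regions (0.291%). Kidney led 27 there, heart 23, liver 22, lung 5, colon 1 and spleen 1. The counts by organ are thus not read as particular to chromosome 19. These calls use CPM over a library's whole list. With counts scaled to those in regions of all 8 lists, 7 regions were led on chromosome 19, or 0.515%, and 2 on chromosome 18. The spread of a region over the 7 organs was taken as the SD on the log2 scale (with 1 added). Its median was 0.62 on chromosome 18, the highest of the 20 autosomes, and 0.54 on chromosome 19, which ranked 8. Over all chromosomes it was 0.53. The median ratio of the highest to the next organ went the other way, with 1.23 on chromosome 19, 1.18 on chromosome 18 and 1.19 over all chromosomes.

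Of the regions led by 1 organ, chr19:51451853-51453722 had 81.4 CPM in uterus and between 0.467 (male liver) and 9.12 (lung) elsewhere, 8.93-fold over the next organ. The others led by uterus were chr19:9010266-9011208, with 53.7 CPM against 8.45 in heart as the next, and chr19:40755958-40758355, with 56.3 against 14.1 in lung. The regions led by heart lay close to each other. At chr19:55512237-55516666 heart had 69.2 CPM and the others between 2.54 (colon) and 10.6 (lung). At chr19:55520178-55526294 heart had 110.5 and the others between 1.91 (spleen) and 27.3 (uterus). The one led by kidney, chr19:756912-759082, had 50.6 CPM in kidney and between 1.46 (spleen) and 12.2 (heart) elsewhere. On chromosome 18, chr18:23579-24529 had 123.9 CPM in kidney and at most 18.1 (uterus) elsewhere, and chr18:4289513-4292248 had 55.2 in uterus and at most 5.10 (heart) elsewhere. In the region with the largest lead of each organ, the female liver value rested on only 6 to 9 counts.

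Regions found in 1 organ only numbered 446 on chromosome 19 in colon, 133 in heart, 471 in kidney, 270 in lung, 236 in spleen, 66 in uterus and 1720 in liver, of which 167 were in both liver lists. On chromosome 18 there were 576 in colon, 307 in heart, 733 in kidney, 319 in lung, 182 in spleen, 55 in uterus and 2019 in liver, of which 271 were in both liver lists. Chromosome 19 held between 1.23% (heart) and 3.07% (uterus) of all regions that a list did not share with any other list, and chromosome 18 between 2.22% (spleen) and 2.85% (heart), where their shares of all merged regions were 2.59% and 2.37%. On chromosome 19 this share was above that of all merged regions in spleen and uterus only, of the 8 libraries. Of the 82285 regions found in liver alone, chromosome 19 held 2.09% and chromosome 18 held 2.45%, and of those in both liver lists 1.67% and 2.72%. Chromosome 19 held more of them than chromosome 18 in spleen (2.88% against 2.22%) and uterus (3.07% against 2.56%) and fewer in the other 6 libraries. Per Mb, regions of 1 list were denser on chromosome 18 in heart (4.17 against 2.26) and kidney (9.95 against 8.01), and denser on chromosome 19 in spleen (4.02 against 2.47), uterus (1.12 against 0.746), the female liver (19.3 against 17.3) and the male liver (7.11 against 6.38). In colon (7.59 on chromosome 19 and 7.82 on chromosome 18) and lung (4.59 and 4.33) the densities were close. The level density over all libraries was thus a sum of libraries that leaned to either side, and the female liver supplied 1135 of the 3175 such regions on chromosome 19 and 1278 of the 3920 on chromosome 18. Each library has its own list, and counts outside the peaks of a list are not part of its count table.

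The strongest region of chromosome 19 found in liver alone, chr19:40361719-40373632, was 11914 bp wide and had 75.4 CPM in the male and 39.4 in the female liver. In heart it was chr19:50974283-50976814 with 40.3 CPM, in kidney chr19:32663767-32664786 with 32.9 and in uterus chr19:16745803-16746564 with 25.5. Lung had 22.3 at chr19:10058449-10059403, colon 21.0 at chr19:23699961-23702755 and spleen 13.3 at chr19:1152125-1153499.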

How the data were processed

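The authors processed the reads of each library with Cell Ranger ATAC 1.2.0 at default settings, except for a forced cell number in liver, lung, colon and spleen. Each library has its own deposited peak list. The peak calling that the study describes is a later one on pooled cell groups, and how these lists were called was not stated. The build of this alignment was not given in the sources used, which name one for the RNA data only. The deposited tables hold 12404 barcodes in colon, 13117 in lung, 20019 in spleen, 2110 in the female and 11935 in the male liver, none of which is the forced number. The deposited counts are raw numbers of cut ends per peak and barcode, not normalized, and the peak lists hold positions without scores. Position columns start at 0 in the files, and positions are printed here from 1.

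Barcodes with at least 1000 counts were kept. Doublets were not called, and leaving out the 5% of barcodes with the most counts was an alternative. Each measure was compared between chr19 and chr18 within a library and tested over libraries by an exact sign-flip permutation test. Cells and peaks were not used as replicates. Merging, overlap and the test were tested on simulated data with peaks of 1 width in regions far apart. Those data could not show how neighbouring regions merge or how the overlap rules differ on peaks of unlike width. Regions were named by rule: the 3 highest means, the widest, the largest lead per organ and the strongest region of 1 organ alone. The members and rules were chosen with earlier results of these data known. The analysis used Python 3.11.15, numpy 2.4.6, scipy 1.17.1, pandas 2.3.3 and matplotlib 3.10.9.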

Additional observations from a re-analysis of the deposited data

Results flagged for a closer look

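In the female liver, the log2 ratio of the median counts of a peak between chromosome 19 and chromosome 18 was 1.58, farther from the other 7 libraries, of which heart was the nearest with 0.83, than Dixon's 95% critical value allows. The median peak of that library had 6 counts on chromosome 19 and 2 on chromosome 18, and 20.7% and 31.9% of its peaks had no count, against at most 0.773% on either chromosome in any other library. None of the other 6 measures checked had such a value in any library, and chance flags about 1 in 20.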

How the results depend on the processing

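Of 83 alternative values of 6 tested measures, 82 kept their direction and their side of the threshold. The share of peaks in regions of all lists, whose p is not used, kept its direction in all 15. Many of the 83 could not have changed, as all 8 libraries went the same way. Averaging both livers could change no measure in this respect. Leaving out 1 library could do so only for the share of peaks in regions of 1 list, where the lists were merged anew. The folds of regions per Mb moved by less than 1.5 times in all 20 alternatives. Among them was the fold of 1-list regions, which fell below 1 without the female liver (0.982) and was 1.43 with the 20000 strongest peaks. These alternatives left out 1 library or filtered peaks by counts. The overlap rule, which changed the share of peaks in regions of all 8 lists, was not varied for the folds. The share of regions led by 1 organ stayed within its exact binomial interval in 10 of 12. The median width turned to a log2 ratio of -0.0209 with the 20000 strongest peaks of each library, and the cause was not tested. At 2-fold in place of 4-fold, 77 regions of all lists (5.67%) were led by 1 organ on chromosome 19. On chromosome 18 they were 25 (7.94%). The share over all chromosomes at 2-fold is not given here, so these values do not set either chromosome apart from the others. Leaving out 1 library at a time, the log2 ratio was 1.11 to 1.28 for peaks per Mb, 0.37 to 0.42 for width, 1.99 to 2.18 for counts per Mb, 0.66 to 0.85 for counts of a peak and -0.96 to -0.85 for the distance, and the differences in sharing were 25.6 to 27.4 and -12.7 to -11.1 percentage points. With both livers averaged, the exact permutation p was 0.0156 in these 6 tests, the smallest that 7 organs can give. The same limits hold for it, as the organs share sites and come from 2 animals. The difference in the share of peaks in regions of all lists fell to 15.5 percentage points with the 20000 strongest peaks. That in the share of peaks in regions of 1 list was then -13.1. Both chromosomes were compared within each library. Pairing of samples by replicate number was not possible, as only liver has more than 1 library. The alternatives for regions per Mb, the scaling to regions of all lists and 1 width rule were chosen after seeing the data. The lists differ in depth, and liver was the only organ taken from both animals.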
